A study of Mus musculus with 20 samples.

Results

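The genes of the proteasome subunits and of the proteins that assemble, activate or inhibit the proteasome were followed through male meiosis in the mouse. They were all genes of which an array probe set carried a single symbol that starts with Psm, then a letter from a to g, then a number. The rule found 48 genes with 101 probe sets among the 18193 genes of the array with a probe set of a single symbol. Each gene was represented by its probe set of highest mean signal over the 20 arrays. One of the 48, Psme3ip1, fits the pattern by its name but encodes a protein that binds the activator Psme3, and is counted as a member for that reason alone. Psme2 was not found by the rule, because its probe set carries a second symbol, and is not analysed here.

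Testicular cells of adult C57BL/6 x DBA/2J F1 males, 10 to 16 weeks old by the labels, were stained with a Hoechst dye, which binds DNA, and sorted by fluorescence into 8 fractions. RNA was hybridised to Affymetrix MOE430 version 2 arrays, with 4 arrays for spermatogonia, 3 each for pre-leptotene and leptotene-zygotene spermatocytes, 1 each for early- and late-pachytene, 2 each for mid-pachytene and diplotene spermatocytes, and 4 for round spermatids. All mice were untreated and of the same cross, and each RNA pool held cells of several sorts and several animals, so an array stands for a pool and not for a mouse. Values are log2 of the GC-RMA signal (a background-corrected, normalized array intensity), and a value of 5 or less was read as near background.

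The proteasome degrades proteins that carry ubiquitin chains. Its core particle is a barrel of alpha subunits, which form the gate, and beta subunits, some of which cut peptides, and the regulatory particle that caps it consists of a base with a ring of ATPases that unfold the substrate and a lid that removes ubiquitin. Male germ cells of mice are known for a variant with the alpha subunit Psma8 in place of Psma7 and with the activator Psme4 on the core.

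The labels of the fractions were set against lists of markers. The 7 pachytene markers summed to log2 signals of 16.1 to 16.4 in mid-pachytene cells, against 13.7 to 14.8 in leptotene-zygotene cells. The 6 measured spermatogonial markers summed to 6.82 to 10.0 in round spermatids, against 14.4 to 15.1 in spermatogonia. In leptotene-zygotene cells they summed to 14.80 to 15.08, and the pre-leptotene arrays lay within the range of the spermatogonia. The spermatogonial markers therefore did not separate spermatogonia from pre-leptotene or leptotene-zygotene cells. Markers of early meiotic prophase summed to at most 13.94 in spermatogonia, 14.52 in leptotene-zygotene cells and 15.06 in mid-pachytene cells. Markers of other cells were also measured, in spermatogonia and in other fractions. Peritubular and endothelial markers summed to 9.23 to 11.39 in spermatogonia and 10.22 to 10.65 in mid-pachytene cells. They summed to 7.92 to 7.94 in diplotene cells and 8.41 to 9.78 in round spermatids. The 4 measured of the 6 listed Leydig cell markers summed to between 5.32 and 8.40 over all 20 arrays. Macrophage and leukocyte markers summed to 10.8 to 13.2 in spermatogonia, 7.60 to 12.2 in pre-leptotene cells and 6.83 to 8.86 in leptotene-zygotene cells. The round spermatid markers summed to 15.4 to 17.2 in spermatogonia, 14.5 to 15.1 in pre-leptotene cells and 16.4 to 16.8 in round spermatids, so that the highest spermatogonia arrays reached the level of the round spermatids. Summed Sertoli cell markers ranged between 9.16 and 12.9 over all 20 arrays and differed between arrays of 1 fraction. In replicates 1 and 2 they stood at 12.90 and 11.43 in mid-pachytene and at 12.61 and 10.49 in diplotene cells. In round spermatids replicates 1 to 4 they stood at 12.77, 11.73, 10.32 and 9.16. The spermatogonial markers were also higher in replicate 1 of diplotene cells (10.12, against 8.72) and of round spermatids (10.02, against 6.82 to 8.05). The part of these signals in the values of members was not tested. The 2 measured of the 5 listed red blood cell markers summed to 3.06 to 3.58. Results of members that involve spermatogonia are therefore given without the spermatogonia arrays as well where their calls changed. For genes outside the members no such values are given. In bulk RNA, fewer cells of a type and less RNA per cell cannot be told apart.

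The stretch around the transcription start is shown for Psma7 and Psme1, which had the largest falls, and for the activator Psme4, whose signal rose. The sequences are those of RefSeq on GRCm38.p6, from 250 bases before to 50 bases after the start, 5′ to 3′ on the strand of the gene. Capitals mark matches, on either strand, to 3 motifs: the core of the antioxidant response element (TGACNNNGC), which binds factors that raise proteasome genes under stress, the CCAAT box (CCAAT), and a site of ETS factors (GGAAGTG). No motif was allowed to mask another.
Psma7, minus strand, chr2:180042415-180042714: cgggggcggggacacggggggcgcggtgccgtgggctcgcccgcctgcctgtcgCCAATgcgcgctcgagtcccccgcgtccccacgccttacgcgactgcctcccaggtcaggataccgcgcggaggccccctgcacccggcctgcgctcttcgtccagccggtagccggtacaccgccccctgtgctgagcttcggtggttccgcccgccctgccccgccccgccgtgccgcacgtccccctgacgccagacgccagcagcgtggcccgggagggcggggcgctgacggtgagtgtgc
Psme1, plus strand, chr14:55578244-55578543: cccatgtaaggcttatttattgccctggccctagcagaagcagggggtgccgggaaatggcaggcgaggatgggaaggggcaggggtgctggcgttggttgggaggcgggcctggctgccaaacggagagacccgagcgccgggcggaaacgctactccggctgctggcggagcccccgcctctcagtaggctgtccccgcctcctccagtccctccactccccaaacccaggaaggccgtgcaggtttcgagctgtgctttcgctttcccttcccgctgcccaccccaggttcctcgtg
Psme4, plus strand, chr11:30771525-30771824: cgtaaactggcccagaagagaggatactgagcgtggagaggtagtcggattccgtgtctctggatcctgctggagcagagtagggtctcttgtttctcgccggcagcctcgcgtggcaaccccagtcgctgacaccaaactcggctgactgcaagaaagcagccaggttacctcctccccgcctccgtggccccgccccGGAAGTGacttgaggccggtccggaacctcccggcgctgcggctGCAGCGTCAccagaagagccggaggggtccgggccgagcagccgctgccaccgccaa
The window of Psma7 held 1 CCAAT box and that of Psme1 none of the 3 motifs. The window of Psme4 held 1 match to the antioxidant response element core and 1 ETS site. Over the 40 members with a window, 6 of 43 windows (14%) held the antioxidant response element core, against 12.4% of 32851 windows of all genes, 15 (34.9%) held a CCAAT box, against 37.4%, and 8 (18.6%) held the ETS site, against 11%. The cAMP response element (TGACGTCA) was in none of the 43 windows and in 1.79% of all windows. These letters are matches in a window and were not read as binding sites.

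Of the 48 genes, 46 had a log2 signal of at least 5 in at least 2 arrays and were tested. Psmb8 and Psmb11 did not reach it. Their timing was examined in 6 comparisons of stages or spans of development. At the first steps none of the 46 passed the threshold (adjusted p of 0.05, limma with Benjamini-Hochberg adjustment over 22396 probe sets) in pre-leptotene cells against spermatogonia, where 0.0502% of all 11952 genes tested were higher and 0.636% lower, and 1 member had an unadjusted p under 0.05. None passed in leptotene-zygotene against pre-leptotene cells, where 2.51% of all genes were higher and 0.0837% lower, and again 1 member had an unadjusted p under 0.05. This fit had no block. With the replicate number as a block, 1 member passed at each of these steps, Psmf1 at the first and Psma8 at the second.

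In mid-pachytene against leptotene-zygotene cells, 2 of the 46 genes rose (4.35%, against 16.2% of all genes) and 7 fell (15.2%, against 17.1%), and the median log2 change was -0.44, against -0.11 over all genes. Without mid-pachytene replicate 2, Psma8 alone of these 9 passed. Compared as spans, the mean of mid-pachytene, late-pachytene and diplotene cells lay above the mean of spermatogonia, pre-leptotene and leptotene-zygotene cells for 6 genes (13%, against 33.2% of all genes) and below it for 26 (56.5%, against 40.1%), with a median log2 change of -0.56, against -0.18. In round spermatids against diplotene cells, 2 rose (4.35%, against 13.5%) and 5 fell (10.9%, against 14.2%), with a median of -0.38, against -0.05. Without diplotene replicate 1, 3 of these 7 passed, namely Psma8, Psmd10 and Psme3. In round spermatids against spermatogonia, 6 were higher (13%, against 35.9%) and 29 lower (63.0%, against 42.4%), with a median of -0.83, against -0.24. In the long spans more members were therefore lower, and fewer higher, than among all genes. These shares were not tested against each other, and the genes were not matched to the members by signal level. Among the neighbouring stages the share that fell was near the background.

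The fraction with the highest mean was leptotene-zygotene for 16 of the 46 genes, pre-leptotene for 9, round spermatids for 8, spermatogonia and late-pachytene for 4 each, early-pachytene for 3, and mid-pachytene and diplotene for 1 each. The lowest mean was in round spermatids for 30 genes, in pre-leptotene cells for 7, in late-pachytene for 4, in diplotene for 3 and in spermatogonia for 2. The same counts were not made over all genes, so they are a description of the members only. Early- and late-pachytene stand for 1 array each, and the fractions of some genes lay close together, those of Psmd4 within 0.36 on the log2 scale.

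**Figure D1:**
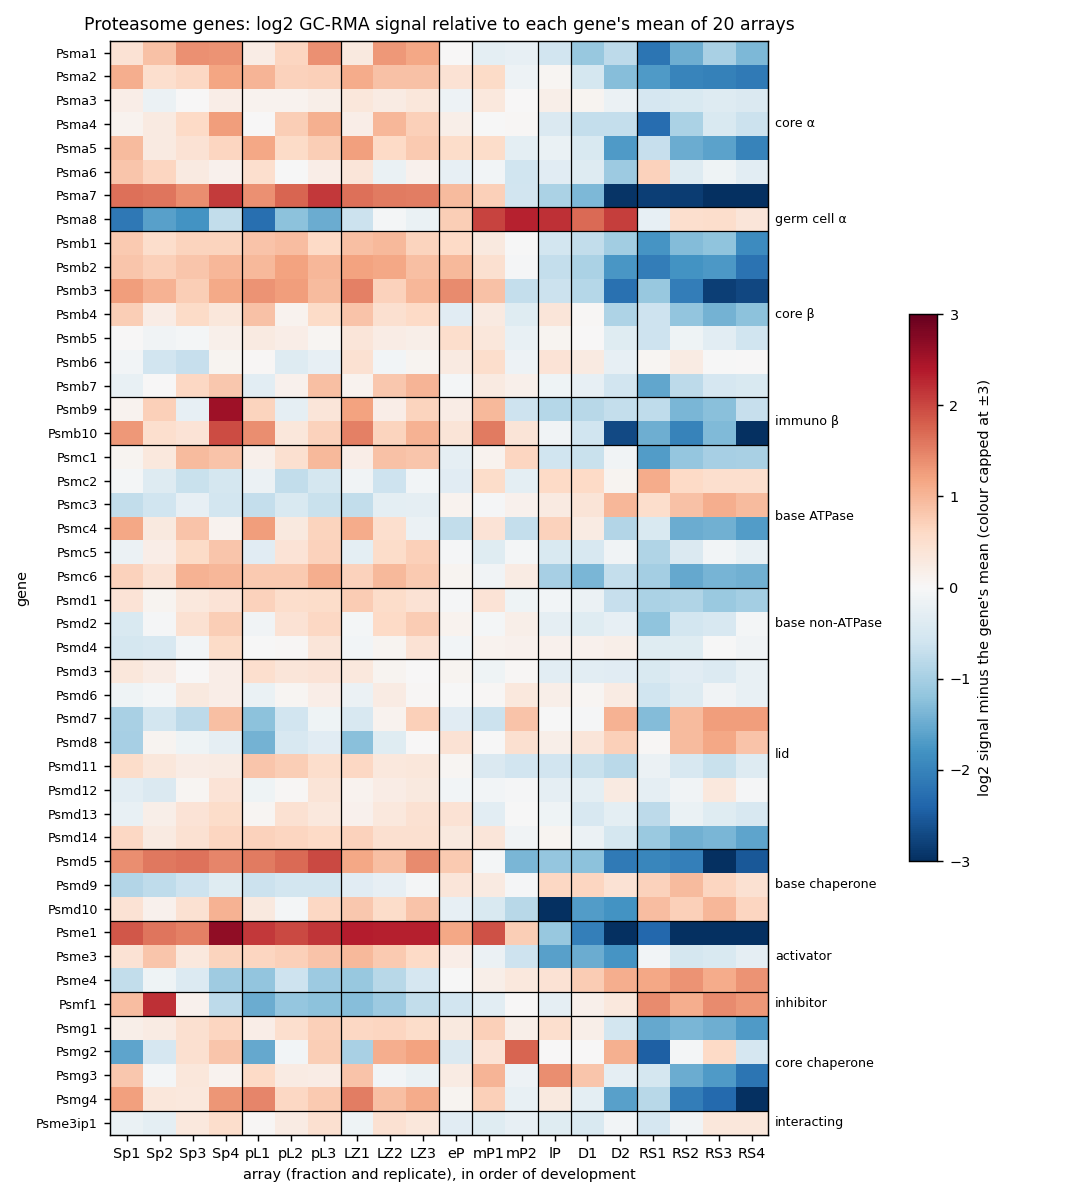
Log2 GC-RMA signal of the 46 tested proteasome genes (rows, grouped by role) in each of the 20 arrays (columns, in order of development: Sp spermatogonia, pL pre-leptotene, LZ leptotene-zygotene, eP, mP and lP early-, mid- and late-pachytene, D diplotene, RS round spermatids), each relative to the gene's own mean over the arrays. The lowest fraction mean is in round spermatids for 30 genes, while Psma8 is highest from mid-pachytene to diplotene and Psme4 in round spermatids. The count of lowest means was not made over all genes.

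Among the alpha subunits of the core, Psma7 and Psma8 moved in opposite ways. Psma8, the germ cell subunit, had log2 signals of 9.02, 9.53, 9.37 and 10.44 in spermatogonia, 8.90, 9.93 and 9.67 in pre-leptotene cells and 10.51, 11.11 and 10.97 in leptotene-zygotene cells. From pachynema on its signals were 11.90 in early-pachytene, 13.18 and 13.48 in mid-pachytene, 13.35 in late-pachytene and 12.86 and 13.25 in diplotene cells, and 10.92, 11.68, 11.70 and 11.54 in round spermatids. Every array from mid-pachytene to diplotene lay above every earlier array, and the round spermatids lay below them, partly within the leptotene-zygotene range. The mid-pachytene mean of 13.33 ± 0.21 (SD, n = 2) was 5.52-fold above the leptotene-zygotene mean of 10.87 ± 0.31 (SD, n = 3), a log2 change of 2.47 ± 0.41 (SE, adjusted p = 0.000663). The span from mid-pachytene to diplotene stood 3.26 ± 0.25 (SE, adjusted p = 1.62e-08) above the earlier span, and round spermatids stood 1.87 ± 0.32 above spermatogonia (SE, adjusted p = 5.56e-05) but fell by 1.59 relative to diplotene cells (adjusted p = 0.00676, and 0.0681 without diplotene replicate 2). In leptotene-zygotene against pre-leptotene cells Psma8 differed by 1.37 ± 0.36 (SE, adjusted p = 0.0662), which did not pass. With the replicate number as a block the adjusted p of this difference was 0.0115, and it was the 1 member that passed there.

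Psma7, the subunit that Psma8 can replace, had signals of 11.32, 11.28, 11.06 and 11.77 in spermatogonia, 11.05, 11.41 and 11.79 in pre-leptotene cells and 11.33, 11.23 and 11.20 in leptotene-zygotene cells. It then had 10.62 in early-pachytene, 10.38 and 9.09 in mid-pachytene, 8.73 in late-pachytene and 8.32 and 6.73 in diplotene cells, and 6.84, 6.82, 6.45 and 5.99 in round spermatids. The signal was lower at each stage from early pachynema on, and no later array reached the range before pachynema. In mid-pachytene against leptotene-zygotene cells the log2 change was -1.52 ± 0.45 (SE, adjusted p = 0.0205), in the later against the earlier span -2.68 ± 0.28 (SE, adjusted p = 4.01e-07), and in round spermatids against spermatogonia -4.84 ± 0.35 (SE, adjusted p = 6.34e-09), a 28.6-fold lower signal. The mid-pachytene arrays stood 9.09 in replicate 2 and 10.38 in replicate 1, and without replicate 2 the first of these changes was -0.87 (adjusted p = 0.326). A second probe set of Psma7 changed by -2.86 between the spans and by -5.04 in round spermatids against spermatogonia.

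Within each array, the log2 difference between Psma8 and Psma7 was taken, so that a shift common to both genes cancels. It was higher by 6.14 in the 9 arrays from mid-pachytene to round spermatids than in the 10 arrays before pachynema (SD 1.03 and 0.78), and no array of either group lay within the range of the other (exact permutation test over 92378 splits, two-sided p = 1.08e-05, the smallest they can give, 3.25e-05 after adjustment over 6 pairs of genes).

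The other alpha subunits fell or stayed. Of the 7 alpha genes apart from Psma8, 6 were lower in the later than in the earlier span and 6 in round spermatids than in spermatogonia, and none was higher. Among all genes 40.1% and 42.4% were lower in these comparisons and 33.2% and 35.9% higher. Psma2 had 10.03, 9.73, 9.70 and 9.61 in round spermatids, against 11.20 and 10.45 in diplotene cells and 12.81, 12.22, 12.35 and 12.90 in spermatogonia. Its round spermatid arrays lay below those of both other fractions, with changes of -1.06 ± 0.29 (SE, adjusted p = 0.0148) and -2.80 ± 0.24 (SE, adjusted p = 3.28e-08). Without diplotene replicate 1 the change of Psma2 against diplotene cells was -0.68. Psma1 had 10.86 and 10.90 in mid-pachytene cells, against 11.44, 12.45 and 12.30 in leptotene-zygotene cells, a change of -1.19 ± 0.43 (SE, adjusted p = 0.0475) that lost its call under 8 alternatives. Psma3 differed between the spans by -0.07 ± 0.14 (SE, adjusted p = 0.664), and in round spermatids it was lower than in spermatogonia by 0.50 on the log2 scale (adjusted p = 0.0158).

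**Figure D2:**
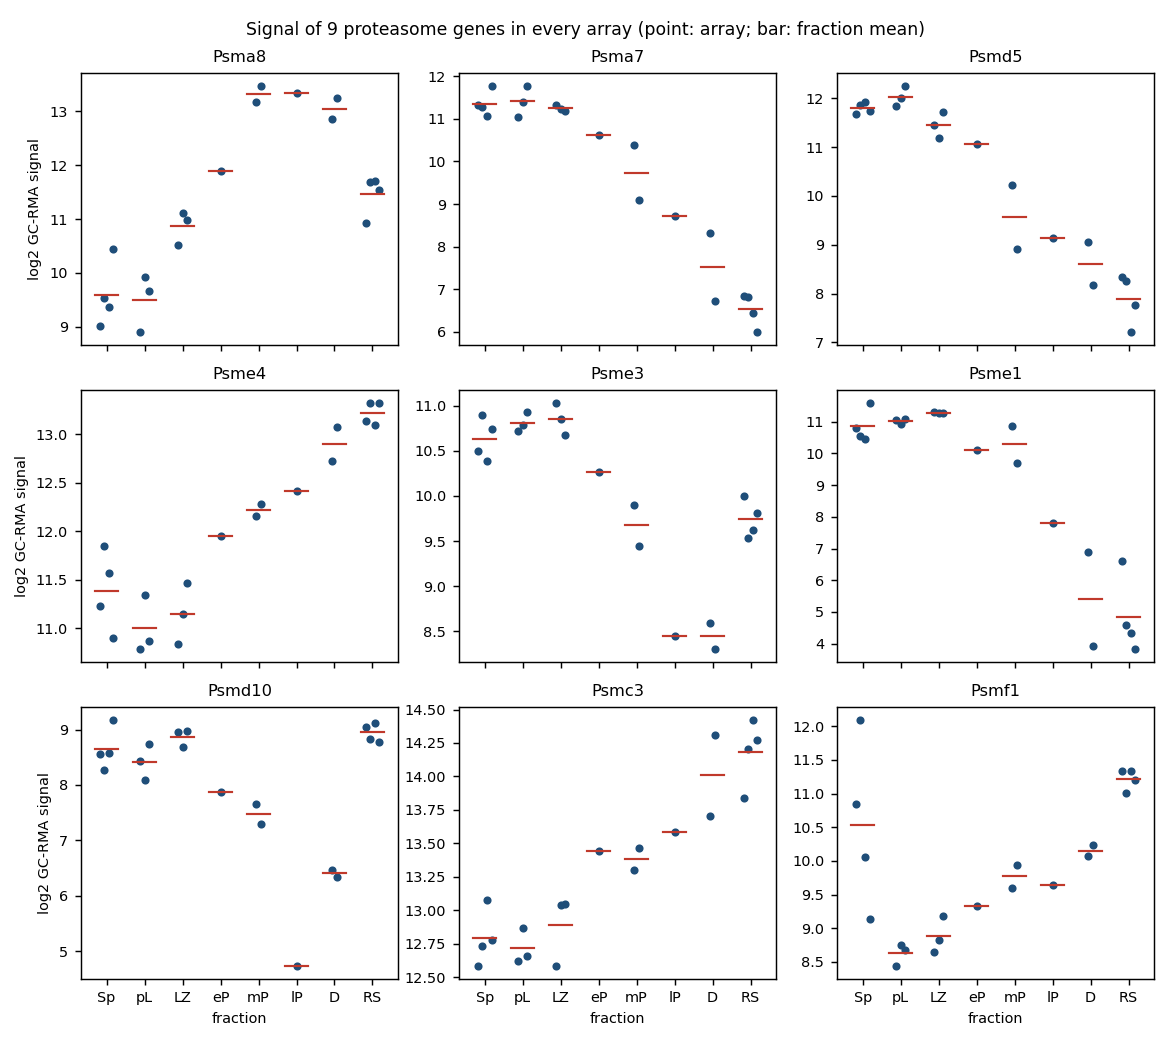
Log2 GC-RMA signal of 9 proteasome genes in each array (points) with the mean of the fraction (bars), over the 8 fractions in order of development (abbreviations as in the heat map). The mean of Psma8 is 13.33 in mid-pachytene cells and that of Psma7 is 6.52 in round spermatids, and Psmd10 has its lowest value, 4.73, in the late-pachytene array.

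Of the 7 constitutive beta subunits, 4 were lower in the later than in the earlier span, 5 in round spermatids than in spermatogonia, and none was higher. Among all genes 40.1% and 42.4% were lower in these comparisons and 33.2% and 35.9% higher, and the counts were not tested against these shares. Psmb1, Psmb2, Psmb3 and Psmb4 were lower in both long comparisons, though Psmb4 did not pass between the spans without mid-pachytene replicate 2 (adjusted p = 0.0815) or diplotene replicate 2 (adjusted p = 0.0974). Psmb3 had 11.21, 10.28, 9.52 and 9.62 in round spermatids, against 13.61, 13.39, 13.08 and 13.49 in spermatogonia, and the groups did not overlap. Its change was -3.24 ± 0.41 (SE, adjusted p = 2.95e-06), and -1.81 ± 0.33 (SE, adjusted p = 0.000156) between the spans. Psmb2 fell by 2.80 on the log2 scale in round spermatids against spermatogonia (adjusted p = 1.17e-08).

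Psmb5, Psmb6 and Psmb7 carry the sites that cut peptides. Psmb5 had 11.32, 11.81, 11.62 and 11.34 in round spermatids, against 11.94, 11.83, 11.89 and 12.10 in spermatogonia. Its difference of -0.42 ± 0.20 (SE, adjusted p = 0.0658) did not pass, nor did that between the spans, -0.15 ± 0.16 (SE, adjusted p = 0.398). Against pre-leptotene and leptotene-zygotene cells, without the spermatogonia, round spermatids were lower by 0.63 (adjusted p = 0.0083), which passed. Psmb6 had 11.99, 12.18, 11.94 and 11.96 in round spermatids, against 11.87, 11.37, 11.24 and 12.02 in spermatogonia, with a difference of 0.39 ± 0.24 (SE, adjusted p = 0.152) and of 0.32 ± 0.19 (SE, adjusted p = 0.152) between the spans. Neither passed, and the 2 fractions overlapped. Psmb7 had 10.53, 11.29, 11.59 and 11.62 in round spermatids, against 11.87, 12.10, 12.71 and 12.89 in spermatogonia. This fall of 1.14 ± 0.33 on the log2 scale passed (SE, adjusted p = 0.0061), while the difference between the spans did not (-0.51, adjusted p = 0.103).

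Psmb8, Psmb9 and Psmb10 are the interferon-induced subunits that replace Psmb5, Psmb6 and Psmb7 in the immunoproteasome, and Psmb11 is known from the thymus. Psmb8 had log2 signals between 2.98 and 3.93 in all 20 arrays, near background, and the mean of Psmb11 over the arrays was 2.52. Psmb10 had 8.06, 7.26, 7.15 and 8.72 in spermatogonia, 8.15, 7.09 and 7.44 in pre-leptotene cells and 8.25, 7.43 and 7.79 in leptotene-zygotene cells. Later it had 7.13 in early-pachytene, 8.31 and 7.14 in mid-pachytene, 6.64 in late-pachytene and 6.16 and 4.04 in diplotene cells, and 5.27, 4.74, 5.42 and 2.82 in round spermatids. The values of early- and mid-pachytene cells lay within the range of the earlier fractions, and those of diplotene cells and round spermatids below. Round spermatids differed from spermatogonia by -3.23 ± 0.58 (SE, adjusted p = 0.000102), or by -2.62 with values under 5 raised to 5. Psmb9 had 4.67, 5.28, 4.32 and 7.12 in spermatogonia, 5.24, 4.30 and 4.95 in pre-leptotene cells and 5.78, 4.78 and 5.24 in leptotene-zygotene cells, and later 4.79 in early-pachytene, 5.56 and 3.94 in mid-pachytene, 3.71 in late-pachytene and 3.75 and 3.87 in diplotene cells, and 3.81, 3.19, 3.32 and 3.88 in round spermatids. Most of these values were near background, and the 7.12 of spermatogonia replicate 4 stood highest. Its change of -1.80 ± 0.51 (SE, adjusted p = 0.00446) in round spermatids against spermatogonia was -0.60 (adjusted p = 0.166) with values under 5 raised to 5, and the change between the spans, -1.06, was -0.25 (adjusted p = 0.495) and lost its call under 10 alternatives in all.

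Macrophage and leukocyte markers were read beside these genes. Psmb10 averaged 7.80 in spermatogonia, 7.82 in leptotene-zygotene cells, 7.73 in mid-pachytene cells and 4.57 in round spermatids, while the summed markers were at 10.8 to 13.2, 6.83 to 8.86, 7.62 to 7.67 and 7.37 to 7.93 in the same fractions. In spermatogonia 12 of the 15 markers had a mean of at least 5, in pre-leptotene cells 6 and in every other fraction 1. The array with the highest Psmb9 and Psmb10, spermatogonia replicate 4, had a summed marker signal of 13.24, and replicate 1, with 13.20, had 4.67 for Psmb9 and 8.06 for Psmb10. Against pre-leptotene and leptotene-zygotene cells, without the spermatogonia, round spermatids differed by -3.12 for Psmb10 (adjusted p = 0.000152) and by -1.50 for Psmb9 (adjusted p = 0.00106). In the same way the later span differed by -1.20 for Psmb10 (adjusted p = 0.0572), which no longer passed, against -1.24 (adjusted p = 0.0266) with the spermatogonia. The within-array difference between Psmb10 and Psmb7 shifted by -1.30 from before pachynema to the later arrays (exact permutation test, adjusted p = 0.0183), that between Psmb9 and Psmb6 by -1.54 (0.000152), and that between Psmb8 and Psmb5 by 0.52 (0.0101), the last with Psmb8 near background throughout. Without the round spermatids the first and the last of these were -0.78 and 0.24, each with an adjusted p of 0.164. With values under 5 raised to 5, the shift between Psmb9 and Psmb6 was -0.57 (adjusted p = 0.00222), as Psmb9 lay mostly under 5. That between Psmb10 and Psmb7 was -0.92 (adjusted p = 0.0258). Psmb8 was then 5 in every array, so the shift of 0.33 (adjusted p = 0.0108) between Psmb8 and Psmb5 came from Psmb5 alone.

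Genes that load peptides on MHC class I, the use to which immunoproteasome products are put, were read beside them. Of the 10 listed, 6 were tested. In round spermatids against spermatogonia 1 was higher and 5 lower, where 35.9% of all genes were higher and 42.4% lower, and between the spans 1 was higher and 3 lower, where 33.2% of all genes were higher and 40.1% lower. The peptide-trimming protease Erap1 changed by -5.16 in round spermatids against spermatogonia, the interferon regulatory factor Irf1 by -3.32, the heavy chain H2-D1 by -2.84, and the loading chaperone Tapbp by 2.00. In pre-leptotene cells, where 6 of the 15 macrophage and leukocyte markers had a mean of at least 5, against 12 in spermatogonia, the light chain B2m differed from spermatogonia by -1.52 (adjusted p = 0.245) and H2-D1 by -1.10 (adjusted p = 0.363), and neither passed. The part of those markers was not tested. The transporter genes Tap1 and Tap2 did not pass the filter.

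**Figure D3:**
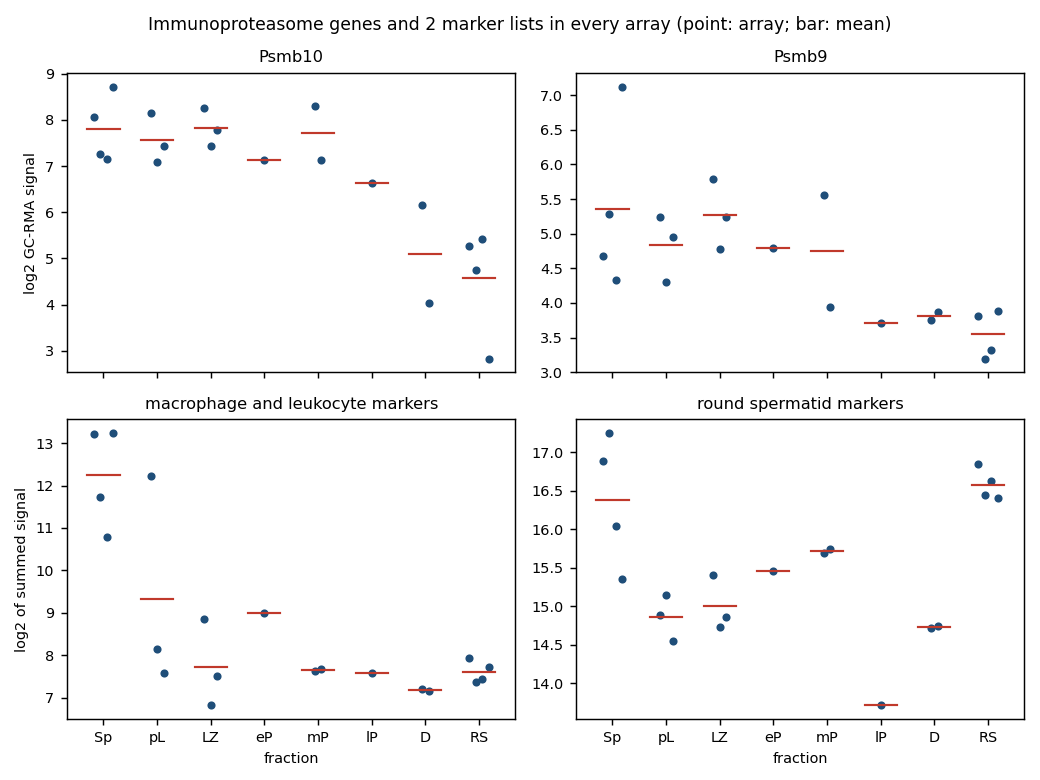
Log2 signal of Psmb10 and Psmb9 (upper panels) and log2 of the summed signal of the macrophage and leukocyte and the round spermatid markers (lower panels) in each array (points; bars are fraction means) over the 8 fractions in order of development. The macrophage and leukocyte markers sum to 10.8 to 13.2 in spermatogonia and to at most 9.01 from leptotene-zygotene cells on.

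The ATPases of the base divided in direction. Psmc2 and Psmc3 rose, and Psmc1, Psmc4, Psmc5 and Psmc6 were lower in round spermatids than in spermatogonia. Psmc3 had 13.30 and 13.46 in mid-pachytene, 13.59 in late-pachytene and 13.70 and 14.31 in diplotene cells, and 13.84, 14.20, 14.42 and 14.27 in round spermatids, after 13.44 in early-pachytene cells and 12.58, 12.73, 13.07 and 12.77 in spermatogonia, 12.62, 12.86 and 12.66 in pre-leptotene cells and 12.59, 13.04 and 13.05 in leptotene-zygotene cells. Every array from early pachynema on lay above all arrays before it. The change was 1.39 ± 0.21 (SE, adjusted p = 1.97e-05) in round spermatids against spermatogonia and 0.86 ± 0.17 (SE, adjusted p = 0.000306) between the spans. Psmc2 rose by 1.09 ± 0.25 (SE, adjusted p = 0.00111) in round spermatids against spermatogonia, and a second probe set of Psmc2 by 1.32. Psmc6 was lower by 2.14 on the log2 scale (adjusted p = 2.46e-07) and Psmc4 by 1.87 (adjusted p = 0.000465). The fall of Psmc5, -0.77 ± 0.31 (SE, adjusted p = 0.0349), lost its call under 5 alternatives. Its fall between the spans, -0.63 ± 0.25 (SE, adjusted p = 0.0343), lost its call under 10, one of which left out the spermatogonia (-0.60, adjusted p = 0.0634).

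Of the 3 non-ATPase subunits of the base, the scaffold genes Psmd1 and Psmd2 were lower in round spermatids than in spermatogonia, by 1.30 (adjusted p = 1.56e-05) and 0.75 (adjusted p = 0.0373) on the log2 scale. The call of Psmd2 was lost under 8 alternatives, with the change at -0.54 (adjusted p = 0.127) without round spermatids replicate 1, -0.56 (adjusted p = 0.122) without spermatogonia replicate 4 and -0.36 (adjusted p = 0.0679) with the mean of all its probe sets. The ubiquitin receptor Psmd4 differed by -0.08 ± 0.24 (SE, adjusted p = 0.774).

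In the lid, 4 of the 8 genes were lower and 1 higher in each of the long comparisons, in which 40.1% (spans) and 42.4% of all genes were lower, so the share was near the background. Psmd14, the enzyme that removes ubiquitin chains, changed by -1.88 ± 0.19 (SE, adjusted p = 2.19e-07) in round spermatids against spermatogonia and by -1.03 ± 0.23 (SE, adjusted p = 0.00457) against diplotene cells. Without diplotene replicate 1 the change against diplotene cells was -0.85. Psmd8 rose by 1.08 ± 0.35 (SE, adjusted p = 0.0114) in round spermatids against spermatogonia. Psmd6, Psmd7 and Psmd12 did not pass in any comparison. The falls of Psmd11 and Psmd13, -0.77 and -0.68 in round spermatids against spermatogonia, rest on their brightest probe sets. Of their other probe sets, 2 of Psmd11 rose by 4.67 and 1.27 and 1 of Psmd13 rose by 2.78, so the direction for these 2 genes depends on the probe set.

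**Figure D4:**
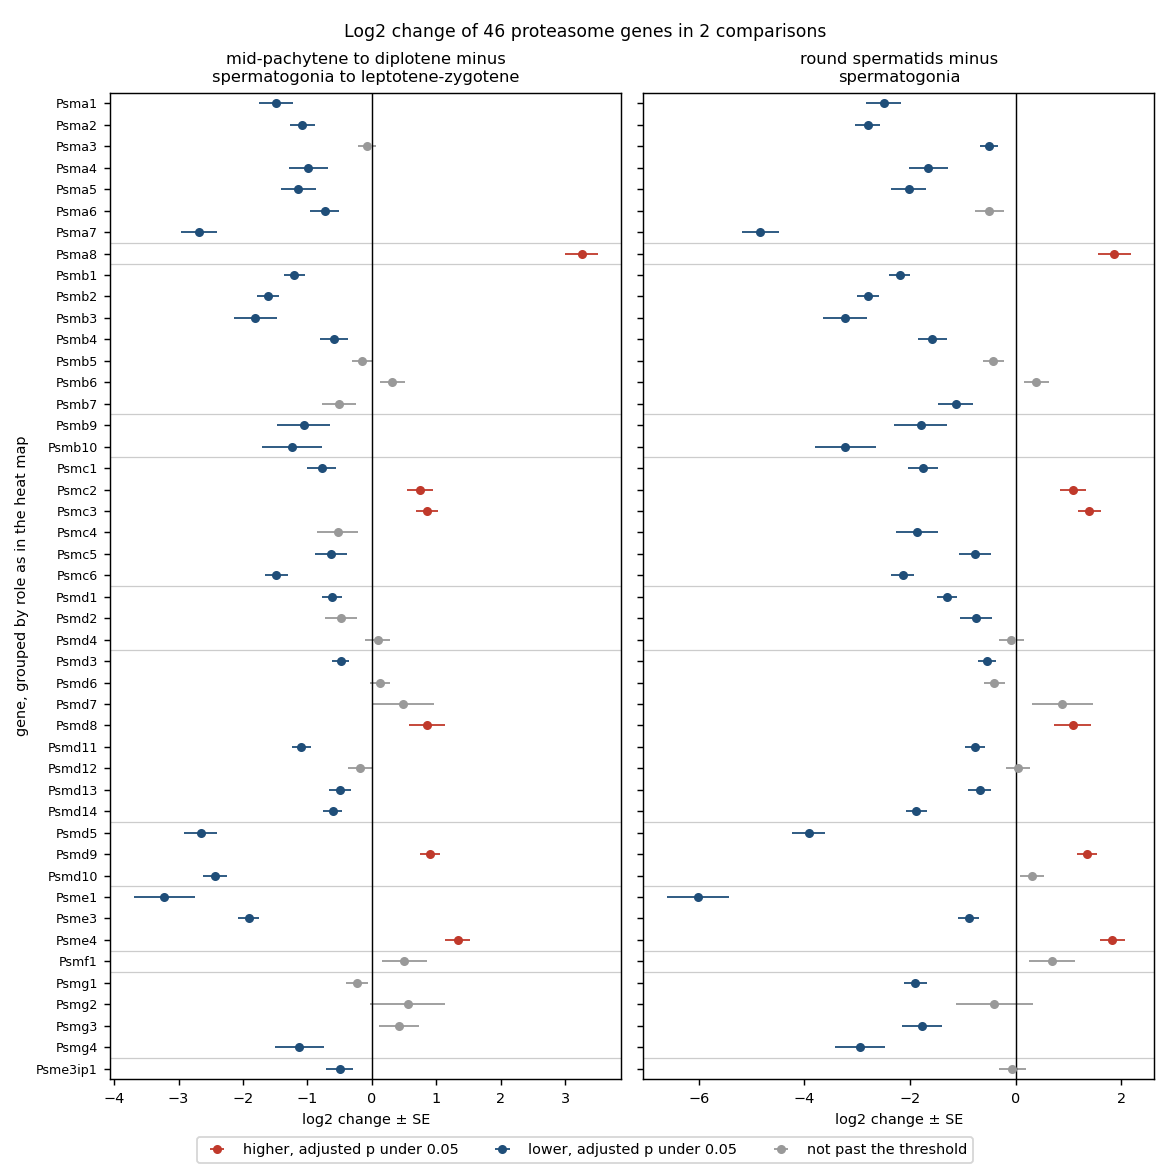
Log2 change with its standard error (bars) for the 46 tested genes, grouped by role, in the later span (mid-pachytene to diplotene) against the earlier span (spermatogonia to leptotene-zygotene) on the left and in round spermatids against spermatogonia on the right. Red genes were higher (6 in each panel) and blue genes lower (26 on the left, 29 on the right) past an adjusted p of 0.05, and grey genes did not pass.

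Psmd5, Psmd9 and Psmd10 are chaperones that bind the ATPases while the base is assembled and then leave, and the 3 genes followed 3 courses. Psmd5 had 11.69, 11.87, 11.92 and 11.74 in spermatogonia, 11.84, 12 and 12.26 in pre-leptotene cells and 11.45, 11.19 and 11.71 in leptotene-zygotene cells. Later signals were 11.07 in early-pachytene, 10.23 and 8.92 in mid-pachytene, 9.13 in late-pachytene and 9.06 and 8.16 in diplotene cells, and 8.33, 8.25, 7.21 and 7.76 in round spermatids. No array from mid-pachytene on reached the earlier range. The mid-pachytene mean was 9.58 ± 0.92 (SD, n = 2), against 11.45 ± 0.26 (SD, n = 3) in leptotene-zygotene cells, a change of -1.88 ± 0.40 (SE, adjusted p = 0.00334), and round spermatids were 15.1-fold below spermatogonia (-3.92 ± 0.31 on the log2 scale, SE, adjusted p = 1.57e-08). Psmd9 rose instead: it had 9.97, 10.22, 9.91 and 9.72 in round spermatids, against 8.39, 8.51, 8.64 and 8.90 in spermatogonia, and the groups did not overlap. The change was 1.34 ± 0.19 (SE, adjusted p = 8.32e-06), and 0.90 ± 0.15 (SE, adjusted p = 6.21e-05) between the spans. Averaged with its dimmer probe sets the same changes were 0.29 (adjusted p = 0.113) and 0.10 (adjusted p = 0.481).

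Psmd10 (gankyrin) is the 1 member on chromosome X, most genes of which are known to be silent in pachytene spermatocytes. It had 8.56, 8.26, 8.58 and 9.18 in spermatogonia, 8.43, 8.08 and 8.75 in pre-leptotene cells and 8.95, 8.68 and 8.98 in leptotene-zygotene cells. It then had 7.88 in early-pachytene, 7.67 and 7.3 in mid-pachytene, 4.73 in late-pachytene and 6.46 and 6.35 in diplotene cells, and 9.05, 8.84, 9.12 and 8.78 in round spermatids. The signal was lowest in late-pachytene and diplotene cells, and the round spermatid arrays were back in the range of the earlier fractions. The mid-pachytene mean of 7.48 ± 0.26 (SD, n = 2) stood against 8.87 ± 0.16 (SD, n = 3) in leptotene-zygotene cells, a change of -1.38 ± 0.29 (SE, adjusted p = 0.00299). Between the spans the change was -2.44 ± 0.18 (SE, adjusted p = 1.07e-08), and without the late-pachytene array it stayed past the threshold. Round spermatids rose to 8.95 ± 0.16 (SD, n = 4), against 6.41 ± 0.08 (SD, n = 2) in diplotene cells, a 5.82-fold change (2.54 ± 0.28 on the log2 scale, SE, adjusted p = 2.78e-05) and the largest rise of a member at that step. Against spermatogonia they differed by 0.30 ± 0.23 (SE, adjusted p = 0.239), which did not pass.

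Activators open the gate of the core without ubiquitin, and the 3 measured genes diverged. Psme4 had 11.23, 11.85, 11.57 and 10.91 in spermatogonia, 10.79, 11.35 and 10.87 in pre-leptotene cells and 10.84, 11.14 and 11.46 in leptotene-zygotene cells. Later it had 11.95 in early-pachytene, 12.16 and 12.28 in mid-pachytene, 12.41 in late-pachytene and 12.72 and 13.07 in diplotene cells, and 13.14, 13.33, 13.09 and 13.32 in round spermatids. Every array from early pachynema on lay above every earlier one, and the fraction means were highest in round spermatids. The changes were 1.07 ± 0.30 (SE, adjusted p = 0.0159) in mid-pachytene against leptotene-zygotene cells, 1.33 ± 0.19 (SE, adjusted p = 1.07e-05) between the spans, and 1.83 ± 0.23 (SE, adjusted p = 2.95e-06) in round spermatids against spermatogonia, a 3.56-fold higher signal. Of the other probe sets of Psme4, the brightest rose by 1.12 and 1.83 in the last 2 comparisons, a dimmer one by 2.25 in the last only, and 2 near background did not pass in either. In mid-pachytene against leptotene-zygotene cells none of the other probe sets passed, and with the mean of all of them the change was 0.43 (adjusted p = 0.36). That call was lost under 4 alternatives in all, among them those without mid-pachytene replicate 2 (adjusted p = 0.124) or leptotene-zygotene replicate 1 (adjusted p = 0.0617).

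Psme1, a subunit of the interferon-induced activator, had 10.81, 10.55, 10.45 and 11.60 in spermatogonia, 11.06, 10.93 and 11.10 in pre-leptotene cells and 11.31, 11.27 and 11.28 in leptotene-zygotene cells. It had 10.11 in early-pachytene, 10.87 and 9.70 in mid-pachytene, 7.82 in late-pachytene and 6.89 and 3.93 in diplotene cells, and 6.60, 4.60, 4.32 and 3.83 in round spermatids. One mid-pachytene array was within the earlier range, and every array of later stages was below it. Between the spans the change was -3.22 ± 0.48 (SE, adjusted p = 1.73e-05). Round spermatids were 64.7-fold below spermatogonia (-6.02 ± 0.59 on the log2 scale, SE, adjusted p = 1.54e-07, or -5.45 with values under 5 raised to 5), the largest fall of any member.

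Psme3, an activator of the nucleus, fell and partly came back. It had 10.50, 10.89, 10.39 and 10.74 in spermatogonia, 10.72, 10.79 and 10.93 in pre-leptotene cells and 11.04, 10.85 and 10.68 in leptotene-zygotene cells. Later it had 10.27 in early-pachytene, 9.90 and 9.45 in mid-pachytene, 8.45 in late-pachytene and 8.59 and 8.30 in diplotene cells, and 10.00, 9.54, 9.62 and 9.81 in round spermatids. The late-pachytene and diplotene arrays were the lowest, and the round spermatids lay above them and below all arrays before pachynema. The change was -1.18 ± 0.26 (SE, adjusted p = 0.0037) in mid-pachytene against leptotene-zygotene cells, 1.30 ± 0.24 (SE, adjusted p = 0.00125) in round spermatids against diplotene cells, and -0.89 ± 0.20 (SE, adjusted p = 0.000812) against spermatogonia. A second probe set fell between the spans alike, by 1.89, but differed by -0.99 (adjusted p = 0.113) in round spermatids against diplotene cells, so the return was seen with the brightest probe set only. The within-array difference between Psme4 and Psme3 was higher by 3.09 in the arrays from mid-pachytene on than in those before pachynema, with no overlap (exact permutation test, adjusted p = 3.25e-05). That between Psme1 and Psme3 was lower by 3.07 (adjusted p = 0.00182), and without round spermatids it differed by -1.38 (adjusted p = 0.0524).

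**Figure D5:**
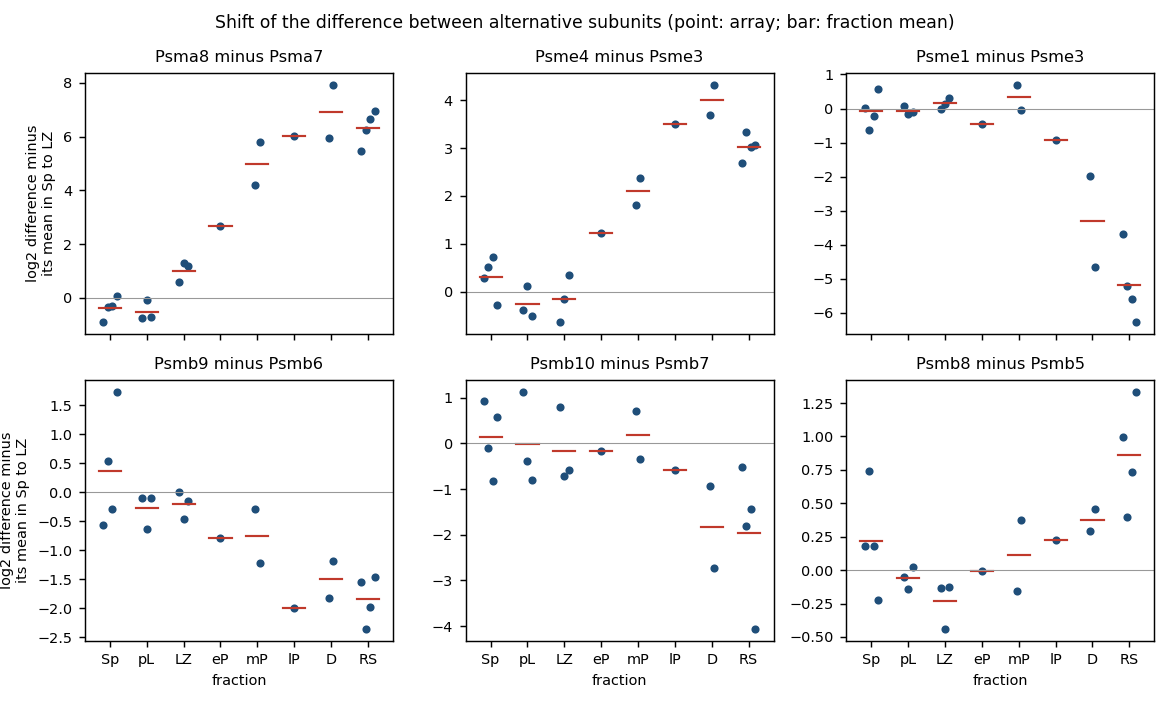
Within-array log2 difference between alternative subunits or activators, in each array (points; bars are fraction means), relative to its mean over the spermatogonia, pre-leptotene and leptotene-zygotene arrays, over the 8 fractions in order of development. The difference between Psma8 and Psma7 shifts by 6.14 and that between Psme4 and Psme3 by 3.09 in the arrays from mid-pachytene on, with no overlap with the earlier arrays.

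Psmf1 encodes an inhibitor of the core. It had 10.85, 12.10, 10.06 and 9.14 in spermatogonia, 8.43, 8.75 and 8.68 in pre-leptotene cells and 8.65, 8.82 and 9.18 in leptotene-zygotene cells. Later it had 9.33 in early-pachytene, 9.60 and 9.93 in mid-pachytene, 9.64 in late-pachytene and 10.07 and 10.24 in diplotene cells, and 11.34, 11.01, 11.33 and 11.21 in round spermatids. Spermatogonia and round spermatids were highest and the spermatogonia spread most widely. In pre-leptotene cells against spermatogonia the difference was -1.91 ± 0.46 (SE, adjusted p = 0.07), and with the replicate number as a block it was -2.15 (adjusted p = 0.0157), the 1 member that passed there. Without spermatogonia replicate 4 it was -2.38 (adjusted p = 0.00315). The summed round spermatid markers in the 4 spermatogonia arrays were 16.89, 17.25, 16.04 and 15.35, in the same order as Psmf1 over these arrays, and their part in the difference was not tested. Against pre-leptotene and leptotene-zygotene cells, Psmf1 was higher by 2.47 in round spermatids (adjusted p = 7.39e-08) and by 1.10 in the later span (adjusted p = 0.000109), whereas with the spermatogonia included the changes of 0.69 and 0.51 did not pass. Another probe set of Psmf1 rose by 1.51 between the spans and fell by 1.42 in round spermatids against diplotene cells, where the brightest one differed by 1.07 (adjusted p = 0.162).

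Of the 4 chaperones that build the core, 2 were lower in round spermatids than in diplotene cells, 3 were lower in round spermatids than in spermatogonia, and 1 was lower in the later than in the earlier span. Among all genes 14.2%, 42.4% and 40.1% were lower in these comparisons. Psmg1 had 9.31, 9.47, 9.36 and 9.13 in round spermatids, against 11.02 and 10.27 in diplotene cells and 11, 11.08, 11.30 and 11.48 in spermatogonia. Its arrays in round spermatids lay below all others, with changes of -1.33 ± 0.27 (SE, adjusted p = 0.00208) and -1.90 ± 0.22 (SE, adjusted p = 9.32e-07), and between the spans it differed by -0.23 (adjusted p = 0.255). Without diplotene replicate 1 the change of Psmg1 against diplotene cells was -0.95, and that of Psmg3 was -1.21. Psmg3 had 5.28, 4.31, 4.10 and 3.61 in round spermatids, against 6.64 and 5.54 in diplotene cells. Its change of -1.76 ± 0.47 (SE, adjusted p = 0.0122) was -1.02 (adjusted p = 0.0667) with values under 5 raised to 5. Psmg4 was lower in both long comparisons, by 1.12 (adjusted p = 0.0141) and 2.95 (adjusted p = 2.92e-05) on the log2 scale (between the spans adjusted p = 0.0548 without diplotene replicate 2), and Psmg2 did not pass in any. Psme3ip1 was lower between the spans by 0.50 (adjusted p = 0.04), a call lost under 12 alternatives.

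Genes that work with the proteasome were read from a list of 20, of which 16 were tested. None of them passed in pre-leptotene cells against spermatogonia or in leptotene-zygotene against pre-leptotene cells. In mid-pachytene against leptotene-zygotene cells 0 were higher and 5 lower, between the spans 2 higher and 9 lower, in round spermatids against diplotene cells 0 higher and 1 lower, and in round spermatids against spermatogonia 4 higher and 8 lower. Among all genes the shares higher and lower in these 4 comparisons were 16.2% and 17.1%, 33.2% and 40.1%, 13.5% and 14.2%, and 35.9% and 42.4%. The median log2 change of the list in the last comparison was -0.86, beside -0.83 for the tested members and -0.24 for all genes. Ubqln2, which shuttles ubiquitinated proteins and lies on chromosome X, changed by -5.07 in round spermatids against spermatogonia, and its paralogue Ubqln1 by 1.50. Nfe2l2, a factor that binds the antioxidant response element, changed by -3.95, the proteasome-bound thioredoxin Txnl1 by -3.07 and the deubiquitinase Usp14 by -2.87. Nfe2l1, known to raise proteasome subunit genes when the proteasome is inhibited, changed by -1.71, and Ngly1, an enzyme that processes the Nfe2l1 protein, by 2.12. Akirin2, an import factor of the proteasome into the nucleus in human cells, rose by 1.50, and Pomp, which matures the core, fell by 0.94 in round spermatids against diplotene cells.

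Each array belongs to an array project, as the headers of the study's supplementary data name it. With the project as a block, all calls of the other comparisons were kept, and 3 of the 32 calls between the spans were lost, those of Psma4 (-0.71, adjusted p = 0.057), Psmd13 (-0.30, adjusted p = 0.117) and Psme3ip1 (-0.38, adjusted p = 0.0819). Within single projects, with 1 to 3 arrays a side, the called members had the direction of the whole set (9 of 9 genes in project 6 for mid-pachytene against leptotene-zygotene cells, 32 of 32 in projects 2 and 6 for the spans, 7 of 7 in projects 4 and 6 for round spermatids against diplotene cells, and 35 of 35 in projects 5 and 8 for round spermatids against spermatogonia). These members were called with the same arrays, so their direction there is a description and no separate support.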

How the data were processed

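The authors deposited linear GC-RMA signal intensities of 20 arrays with 45037 probe sets, made in GeneSpring GX. A version of GC-RMA was not given in the sources used here. Median signal per array was 11.1 to 12.7, and no control probe sets were among them. Groups and replicate numbers came from the labels. Early- and late-pachytene, with 1 array each, have no replicate error. Among the 6 comparisons late-pachytene enters the span mean only. Its array is also 1 of the 9 later arrays of the permutation tests. Both fractions enter the counts of highest and lowest means.

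One limma model (version 3.58.1, R 4.3.3) of log2 signals took the 8 fractions as groups across the 20 arrays (12 residual and 3.69 prior degrees of freedom), two-sided. P-values were adjusted by Benjamini-Hochberg over 22396 probe sets whose log2 signal reached 5 on 2 or more arrays, and 0.05 was the threshold. Shares of all genes use 1 probe set per gene. Gene names came from the platform annotation: 34945 probe sets had 1 symbol, 932 several and 9160 none. Probe sets ending in _s_at or _x_at can bind related transcripts. The number of arrays limits the precision, and whether pools of 1 fraction shared animals is not given, so p-values measure the spread between pools. On simulated data with the spread of these arrays, 55% of changes of 2 and 95% of changes of 4 (log2, 100 each) were recovered between mid-pachytene and leptotene-zygotene, and 73% and 99% between round spermatids and spermatogonia. In the simulation all fractions shared 1 mean per probe set, and only 200 of the 22396 probe sets were given a change. Far more genes were called in the real comparisons, so these percentages do not tell how many real changes were missed.

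Values of every array are given for genes of the pairs, Psme1 to Psme4 as far as measured, Psmf1, Psmd10, and the 4 largest rises and falls past the threshold per comparison; these values may stand for the fractions compared only. Other members are given by counts, ranges and changes. The members and gene lists were chosen with earlier results of these data known. For arrays of equal replicate number, the correlation of deviations from fraction means was taken. It was 0.20 to 0.60 for pre-leptotene with spermatogonia and 0.31 to 0.62 for leptotene-zygotene with pre-leptotene. For round spermatids with spermatogonia it was 0.15 to 0.43. Every pair was over 0.1, and the replicate number was used as a block on that ground. Arrays of unequal number were not correlated, so these values cannot show that the numbers pair the arrays. At the first 2 steps pairs within 1 array project had 0.44 to 0.62, and pairs across projects 0.20 and 0.31. In round spermatids with spermatogonia they had 0.16 and 0.18 within and 0.43 and 0.15 across. The other comparisons had 2 pairs. Array projects were assigned by equal signals in the study's supplementary data. The main fit did not use the pairing by replicate number. The permutation tests split the arrays without regard to fraction, replicate number or array project. Arrays of 1 fraction thus counted as separate units in them. They ran in Python 3.11.15, with the adjustment in scipy 1.17.1, and figures in matplotlib 3.10.9.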

Additional observations from a re-analysis of the deposited data

Results flagged for a closer look

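Of 92 groups of 4 arrays (46 genes in spermatogonia and in round spermatids), 2 had an array far from the others by Dixon's test, which chance gives in about 1 of 20. Both were round spermatids replicate 1: its log2 signal of Psmd7 was 7.65, while the others lay between 9.90 and 10.20, and its Psmc2 was 14.47, while the others lay between 13.87 and 13.97. Psmd7 passed in no comparison, and the rise of Psmc2 in round spermatids against spermatogonia passed without this array too.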

How the results depend on the processing

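Counts of members past the threshold were recomputed under 32 other settings. The counts for the spans (32) and for round spermatids against spermatogonia (35) stayed within 1.5 times, at 28 to 33 and 33 to 36 with 1 array left out, and without the spermatogonia arrays, an alternative chosen after the data were seen as were those without the late-pachytene array, they were 31 and 37, with pre-leptotene and leptotene-zygotene cells in their place. The mid-pachytene against leptotene-zygotene count of 9 was 4 with only these fractions in the fit, all of them among the 9, 18 with array project as a block, and 1 to 10 with 1 array left out, the lowest without mid-pachytene replicate 2. The round spermatid against diplotene count of 7 was 11 with array project as a block and 3 to 8 with 1 array left out, the lowest without diplotene replicate 1. Pre-leptotene against spermatogonia, with 0, gave 0 to 1 with 1 array left out, and leptotene-zygotene against pre-leptotene, with 0, gave 1 (Psma8) under a mean-variance trend, array project as a block, or the mean of all probe sets of a gene, and 0 to 0 with 1 array left out.

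With the replicate number as a block, the counts were 1 (Psmf1) for pre-leptotene against spermatogonia, 1 (Psma8) for leptotene-zygotene against pre-leptotene, 18 for mid-pachytene against leptotene-zygotene and 15 for round spermatids against diplotene; the last 2 rest on 2 pairs each, too few to tell whether the numbers pair the arrays. Blocking changed the count of neither long comparison by over 1.5 times.

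Among the within-array differences, leaving out 1 array gave 5.91 to 6.38 for Psma8 minus Psma7, 0.41 to 0.60 for Psmb8 minus Psmb5, -1.69 to -1.35 for Psmb9 minus Psmb6, -1.55 to -0.95 for Psmb10 minus Psmb7, 2.94 to 3.25 for Psme4 minus Psme3 and -3.54 to -2.67 for Psme1 minus Psme3, all past the threshold. Without round spermatids Psmb8 minus Psmb5 was 0.24, Psmb10 minus Psmb7 -0.78 and Psme1 minus Psme3 -1.38, no longer past it. Psmb8 was near background in every array, so its difference from Psmb5 was not read as an exchange of these subunits. The pair of Psme2 and Psme3 was not run, as Psme2 has no probe set of a single symbol.

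Of 83 single changes of members past the threshold, 52 kept direction and call under every alternative run, and 31 lost the call under at least 1. With the mean of all probe sets of a gene 3 turned: Psmd13 to 0.27 between the spans and 0.33 in round spermatids against spermatogonia, and Psmd11 to 0.13 in round spermatids against spermatogonia, none past the threshold. The cause of the other moves was not tested. Signal near background limits Psmb8, Psmb9, Psmb11 and Psmg3.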
